A study of Mus musculus with 20 samples.

Results

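The mitotic kinesins are the motors and microtubule-end enzymes that build the spindle, move chromosomes on it and cut the cell apart after division. Kif11, Kif15, Kif22, Kif4, Kif2c, Kif18a, Kif18b, Kif23, Kif20a and Kif20b were chosen by symbol as kinesins that act in the spindle or in cytokinesis. They make up 10 of the 51456 gene symbols in each library's table and 10 of the 10843 symbols with a mean of at least 1 FPKQ, the level that a gene needed to be tested. FPKQ is the deposited unit, treated here as fragments per kilobase on a scale set by a quantile, so that levels can be compared between genes. All 10 passed that minimum, but the overall mean of Kif18a lies just above it through its wild-type libraries.

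The transcripts were measured by poly-A RNA-seq in bone-marrow-derived macrophages, cells grown from mouse marrow in the growth factor CSF-1, which drives marrow precursors to divide and to mature into macrophages. All mice were C57BL/6 and 4 to 5 months old, and all cultures received 50 ng/ml CSF-1 for 6 days. Of the 20 libraries, 10 were wild type (WT, numbered Rep1 to Rep10), 5 came from a Trem2 knockout line whose label reads 5bp KO (KO), and 5 came from a line with R47H knocked into Trem2 (R47H), each numbered Rep1 to Rep5. Trem2 is a lipid-sensing surface receptor of macrophages and microglia. The alleles were carried by the mice and not induced in culture. The design text names wild-type littermates of each line and 5 animals per genotype, but the labels tie no wild-type library to a line, so both mutants were compared with the same 10 libraries and the comparisons share their controls.

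In wild-type libraries Trem2 stood at 691 to 901 FPKQ, in KO at 23.7 to 24.8 and in R47H at 496 to 794. All 10 macrophage markers looked up were present, and their summed level, most of it Lyz2, was 23437 to 26846 FPKQ in WT, 32695 to 35455 in KO and 26697 to 29718 in R47H. The markers did not move together, since in KO the means of Lyz2, Csf1r, Adgre1 and Mertk, among others, were higher than in WT and called so by limma, those of Cd14, Itgam, Fcgr1 and Spi1 were lower and called so, and Cd68 was not called. Markers of progenitors and monocytes summed to 31.9 to 50.7 FPKQ in WT, 26.6 to 40.5 in KO and 24.8 to 36.0 in R47H, with 3 of 10 tested. Most of that sum was Ccr2, at 34 FPKQ in WT, 19.5 in KO and 21 in R47H. The list went both ways in KO. Like Ccr2, Kit was lower in KO, at 3.13 FPKQ against 4.42 in WT, and so was Cd34, at 0.161 against 0.268. The other means were higher in KO. Those of Mpo, Elane and Prtn3, all under the level needed for a test, were over 2-fold higher. Mpo stood at 1.1 FPKQ against 0.438 in WT and Elane at 1 against 0.374. The part of progenitor and monocyte markers in the results below was not tested. Neutrophil markers summed to 73.2 to 109 FPKQ in WT, 102 to 132 in KO and 88 to 154 in R47H, with Ly6g at 0 in every WT and KO library. Most of the higher sum in KO was Csf3r, at 29.8 FPKQ in WT and 55.6 in KO. S100a8, at 17.9 and 18, and S100a9, at 33.6 and 33.9, hardly differed. Mmp8 was higher in KO, and Camp and Retnlg were lower. The dendritic and B cell lists reached at most 84.2 and 89.4 FPKQ in any library. The lists for T and NK cells, erythroid cells, mast cells and stroma reached at most 1.91 FPKQ in any library. An FPKQ of 1 in a transcript of 2 kb corresponded to an estimated 60.6 ± 5.09 fragments in WT, 51.6 ± 3.89 in KO and 52.2 ± 3.55 in R47H (mean ± SD over 10, 5 and 5 libraries).

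Kinesins carry a motor domain that splits ATP while bound to a microtubule. During mitosis different members push spindle poles apart, carry chromosome arms toward the middle of the cell, shorten microtubule ends, and gather the antiparallel microtubules between separating chromosomes at which the cleavage furrow forms. Most of their transcripts rise as cells approach division and are low in resting cells. The promoters of many such genes are known to be bound by the NF-Y complex at CCAAT boxes and, through an element named the cell cycle genes homology region (TTTGAA or TTCGAA), by complexes that repress them in resting cells and activate them before division.

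RefSeq promoter windows on GRCm38.p6, from 250 bases before to 50 after the start, were available for 9 of the 10 genes, with Kif20a not among them. The letters TTTGAA, on either strand, stood in the windows of 8 of the 9 and in 17.9% of all 32851 windows of that length. CCAAT, on either strand, stood in 5 of the 9 and in 37.4% of all windows. Both TTTGAA or TTCGAA and CCAAT stood in 5 of the 9, those of Kif11, Kif22, Kif4, Kif18b and Kif23, and in 7.52% of all windows. TTCGAA stood in none of the 9 and in 1.56% of all windows. The window of Kif18a held none of these letters. The windows are shown from 90 bases before to 30 after the RefSeq start, read along the gene, to show where the motifs lie relative to the start. The capitals mark CCAAT and TTTGAA or their reverse complements ATTGG and TTCAAA, and a match of letters is not evidence of a bound site.
Kif11 (chr19:37376292-37376411, plus strand): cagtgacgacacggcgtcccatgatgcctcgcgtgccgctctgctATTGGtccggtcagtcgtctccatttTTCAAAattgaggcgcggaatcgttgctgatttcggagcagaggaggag
Kif15 (chr9:122950991-122951110, plus strand): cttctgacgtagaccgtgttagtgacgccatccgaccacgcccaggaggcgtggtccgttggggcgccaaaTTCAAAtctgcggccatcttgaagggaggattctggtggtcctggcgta
Kif22 (chr7:127042391-127042510, minus strand): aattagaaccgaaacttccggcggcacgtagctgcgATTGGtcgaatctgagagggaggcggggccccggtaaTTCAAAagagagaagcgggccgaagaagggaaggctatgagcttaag
Kif18b (chr11:102925095-102925214, minus strand): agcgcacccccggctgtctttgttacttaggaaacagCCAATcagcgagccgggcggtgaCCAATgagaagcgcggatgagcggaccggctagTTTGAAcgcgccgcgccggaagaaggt
Kif23 (chr9:61946770-61946889, minus strand): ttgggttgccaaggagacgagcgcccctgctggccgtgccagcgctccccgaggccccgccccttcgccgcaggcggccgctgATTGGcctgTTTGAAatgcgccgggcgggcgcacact
Kif20b (chr19:34922268-34922387, plus strand): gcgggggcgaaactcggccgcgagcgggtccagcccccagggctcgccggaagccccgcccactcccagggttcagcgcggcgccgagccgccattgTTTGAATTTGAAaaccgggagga
Kif18a (chr2:109280648-109280767, plus strand): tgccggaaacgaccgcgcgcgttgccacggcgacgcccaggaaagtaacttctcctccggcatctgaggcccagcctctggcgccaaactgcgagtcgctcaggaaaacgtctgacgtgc
In all of these but Kif18a, TTTGAA or its reverse complement lay close to the start, and Kif15 and Kif22 held a further match upstream of the stretch shown. The first base of the nearer match was 19 bases before the start in Kif11 and in Kif15, 17 before in Kif22, and 3 and 4 bases after it in Kif23 and Kif18b, and Kif20b carried it as a direct repeat with first bases at 8 and 14. The windows of Kif4 and Kif2c are included in the counts above but are not shown. They are left out because the RefSeq start lies 328 bases and 3867 bases inside the GENCODE gene. Kif4 has ATTGG with its first base 5 bases before that start and TTTGAA 20 bases after it, and in Kif2c the single match to TTTGAA begins 103 bases before the start.

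All 10 kinesins fell in KO and all 10 fell in R47H. In KO the decline ran from a mean of 38.7% of wild type for Kif23 down to 9.24% for Kif4, and in R47H from 57.6% for Kif23 down to 35.2% for Kif18b. Tests are from limma on log2(FPKQ + 1), adjusted over all 10843 genes by the Benjamini-Hochberg method, and a change was called at an adjusted p under 0.05. Because 1 is added to each level, these log2 differences understate the change of the genes with low levels. Among all genes tested, 23.7% were called lower and 28.2% higher in KO, and 7.83% were called lower and 13.4% higher in R47H. The median log2 difference over the 10 kinesins was -1.68 in KO and -0.93 in R47H, beside 0.014 and 0.039 over all genes. When libraries were instead rescaled to equal sums, the median of all genes moved by -0.073 in KO and -0.109 in R47H, and the share of calls that were higher went from 54.3% to 36.2% in KO and from 63.1% to 20.6% in R47H (48.6% after quantile normalization), while the 10 kinesins kept their direction and call. In bulk RNA, fewer dividing cells and less of these transcripts per cell cannot be told apart.

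**Figure D1:**
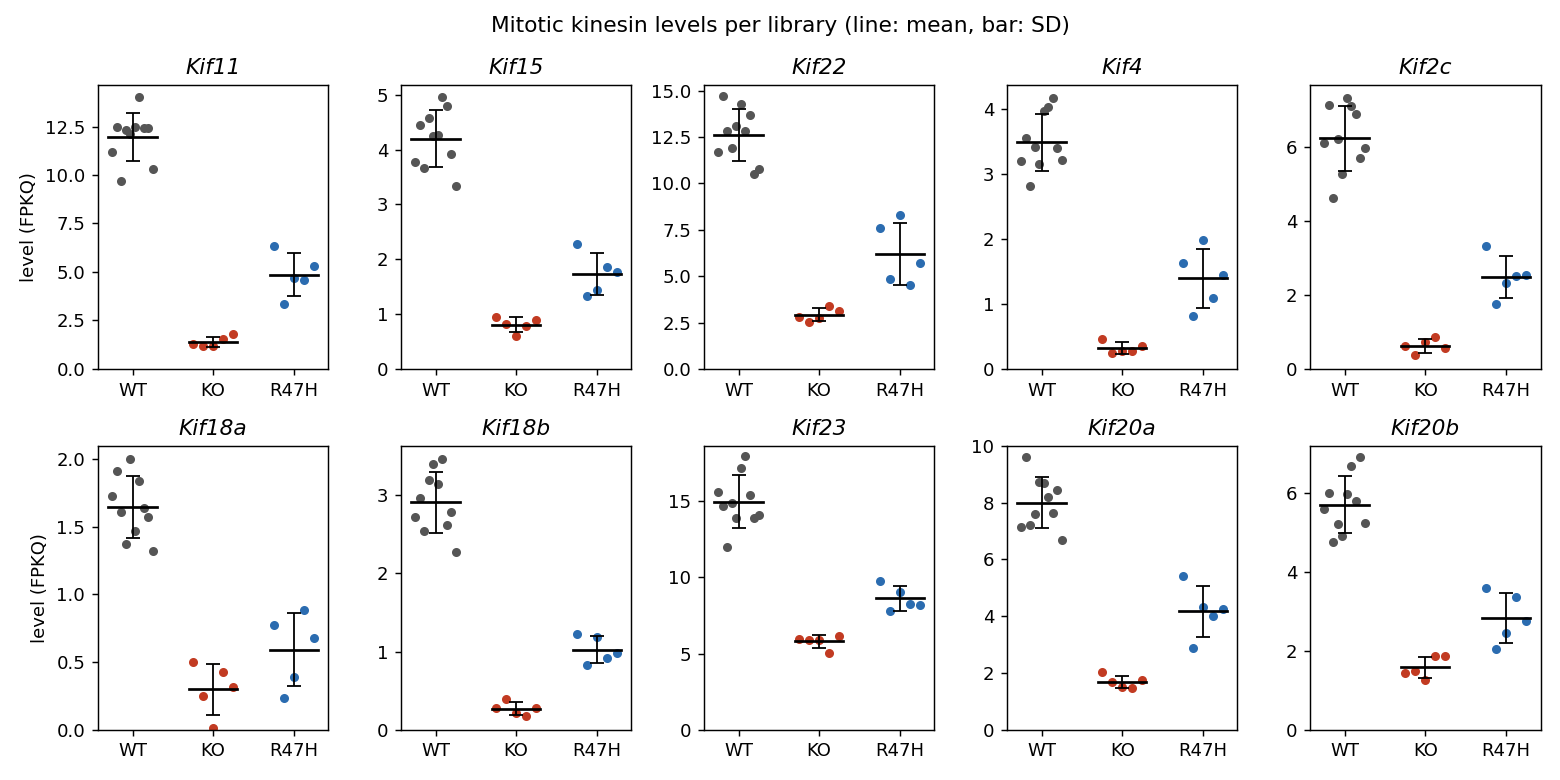
Level of each mitotic kinesin in each library, in FPKQ on a linear axis that starts at 0, with a line at the group mean and a bar of 1 SD, for 10 WT, 5 KO and 5 R47H libraries. In each panel the mutant libraries lie under all 10 WT libraries, and KO lies under R47H without overlap in all panels but that of Kif18a.

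In the plot of levels by library, each KO library lay below each WT library for 10 of 10 kinesins, a separation that 13.3% of all tested genes showed. Each R47H library lay below each WT library for 10 of 10 as well, which held for 3.14% of all genes. Each KO library lay below each R47H library for 9 of 10, Kif18a being the exception, and 12.3% of all genes showed that order.

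Kif11 is the motor that slides antiparallel microtubules apart and so separates the spindle poles, and it is encoded on chromosome 19 (GRCm38, 37376403 to 37421859, plus strand, 22 exons in its coding transcript). The WT libraries ranged from 9.69 to 14.0 FPKQ with a median of 12.3. In KO, Rep1 to Rep5 gave 1.31, 1.18, 1.16, 1.52 and 1.78 FPKQ, and in R47H they gave 6.36, 3.36, 4.70, 4.58 and 5.29. The 3 groups formed separate bands, with R47H between the others. On the scale of log2(FPKQ + 1), Kif11 had the largest log2 difference of the 10 in both mutants, -2.44 in KO (SE 0.096, limma adjusted p = 1.98e-14) and -1.16 in R47H (SE 0.096, adjusted p = 3.6e-08). Only 0.157% of all tested genes had a more negative log2 difference in KO, and 0.194% in R47H. The order depends on the added constant, and with 0.1 in place of 1 the differences in KO were -3.15 for Kif2c, -3.10 for Kif4, -3.04 for Kif18b and -3.02 for Kif11, and in R47H -1.43 for Kif18a, -1.42 for Kif18b, -1.31 for Kif4 and -1.30 each for Kif2c and Kif11.

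Kif15 cooperates with Kif11 in keeping the spindle bipolar and can take over when Kif11 is inhibited. It is encoded on chromosome 9 (122951046 to 123018733, plus strand). Its level in WT was 3.33 to 4.96 FPKQ, with a median of 4.26. KO libraries gave 0.955, 0.814, 0.595, 0.791 and 0.889 FPKQ and R47H libraries 2.28, 1.33, 1.43, 1.85 and 1.77. Again no library of one group reached another, and R47H Rep2 and Rep3 were the R47H libraries nearest to KO. The log2 difference was -1.52 in KO (SE 0.0848, adjusted p = 2.83e-12) and -0.93 in R47H (SE 0.0848, adjusted p = 9.66e-08). The ratio of Kif11 to Kif15 was 2.86 ± 0.189 in WT (SD, n = 10), 2.81 ± 0.334 in R47H (n = 5) and 1.74 ± 0.303 in KO (n = 5), where its highest value, 2, lay under the lowest of WT, 2.60. This ratio and those below are descriptions of levels, and no test of them was run.

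Kif22 and Kif4 are chromokinesins, motors that sit on chromosome arms. Kif22 pushes the arms toward the middle of the spindle, and Kif4 works with condensin on chromosome shape and with Prc1 on the length of the central spindle. Kif22 on chromosome 7 (127027729 to 127042471, minus strand) ranged from 10.5 to 14.7 FPKQ in WT with a median of 12.8. Its KO libraries gave 2.80, 2.53, 2.77, 3.40 and 3.12 FPKQ, and its R47H libraries 7.61, 4.83, 8.27, 4.51 and 5.70. R47H Rep1 and Rep3 stood apart above the other 3 R47H libraries, yet under every WT library. The log2 difference of Kif22 was -1.79 in KO (SE 0.105, adjusted p = 6.08e-12) and -0.95 in R47H (SE 0.105, adjusted p = 1.1e-06).

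Kif4 lies on the X chromosome (100625737 to 100727214, plus strand). As a share of its wild-type level it was the lowest in KO, at 9.24%, hardly apart from Kif18b at 9.26%, but not in R47H. It ranged from 2.82 to 4.18 FPKQ in WT, with a median of 3.41. KO libraries gave 0.459, 0.238, 0.283, 0.280 and 0.356 FPKQ, and R47H libraries 1.64, 0.816, 1.99, 1.10 and 1.44. The KO values correspond to an estimated 41.4 ± 11.4 fragments per library (SD, n = 5), against 530 ± 91.9 in WT (n = 10), so the KO level is less precisely known. The log2 difference was -1.76 in KO (SE 0.0964, adjusted p = 2.07e-12) and -0.92 in R47H (SE 0.0964, adjusted p = 4.95e-07). The annotated pseudogenes Kif4-ps and Kif22-ps were listed at 0 in all 20 libraries. Kif22 retained more of its level than Kif4, and the ratio of the pair was 3.65 ± 0.482 in WT, 4.56 ± 0.804 in R47H and 9.49 ± 2.27 in KO, whose lowest library, at 6.09, lay above the highest of WT, at 4.55.

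Kif2c, Kif18a and Kif18b act at microtubule ends. Kif2c does not walk but removes tubulin from microtubule ends at the centromere, which releases wrongly attached chromosomes. Kif18a damps the back-and-forth movement of chromosomes at the spindle equator, and Kif18b shortens the astral microtubules with Kif2c and Mapre1. Kif2c on chromosome 4 (117159639 to 117182639, minus strand) ranged from 4.62 to 7.32 FPKQ in WT with a median of 6.16. KO libraries gave 0.606, 0.366, 0.718, 0.871 and 0.566 FPKQ, and R47H libraries 3.33, 1.76, 2.32, 2.50 and 2.53. The groups did not overlap, and R47H Rep1 and Rep2 were the extremes of their group. The log2 difference of Kif2c was -2.15 in KO (SE 0.102, adjusted p = 2.58e-13) and -1.06 in R47H (SE 0.102, adjusted p = 1.87e-07).

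Kif18b on chromosome 11 (102905529 to 102925124, minus strand) ranged from 2.28 to 3.47 FPKQ in WT, with a median of 2.87. KO libraries gave 0.281, 0.396, 0.217, 0.181 and 0.272 FPKQ, and R47H libraries 1.22, 0.831, 1.18, 0.919 and 0.975. All 3 groups were separate, and the R47H libraries lay within 1.46-fold of each other, the tightest range after that of Kif23. The KO values rest on an estimated 23.4 ± 8.75 fragments per library (SD, n = 5), against 292 ± 32.3 in WT (n = 10). This limits how well the KO level is known. The log2 difference was -1.62 in KO (SE 0.0766, adjusted p = 2.61e-13) and -0.95 in R47H (SE 0.0766, adjusted p = 3.11e-08).

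Kif18a on chromosome 2 (109280738 to 109341747, plus strand) had the lowest wild-type level of the 10, from 1.32 to 2.00 FPKQ with a median of 1.63. KO libraries gave 0.5, 0.247, 0.0126, 0.425 and 0.315 FPKQ, and R47H libraries 0.773, 0.234, 0.389, 0.886 and 0.678. Both mutants lay under every WT library, but their own ranges overlapped, and R47H Rep2 lay below 4 of the 5 KO libraries. KO Rep3 rests on an estimated 0.984 fragments, and the KO libraries on 26.5 ± 16.5 (SD, n = 5), which limits how well its level in KO is known. The log2 difference was -1.03 in KO (SE 0.104, adjusted p = 2.97e-08) and -0.75 in R47H (SE 0.104, adjusted p = 2e-05), the smallest of the 10 in KO on this scale, although its KO mean was 18.2% of wild type.

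Kif23, Kif20a and Kif20b act in the central spindle and in cytokinesis. Kif23 pairs with Racgap1 to form centralspindlin, which bundles the central spindle and recruits the activator of the cleavage furrow, and Kif20a brings the Aurkb complex from the chromosomes to the central spindle. Kif20b works late in abscission. Kif23 on chromosome 9 (61915905 to 61946774, minus strand) was the most abundant of the 10 in every group, from 12 to 18 FPKQ in WT with a median of 14.8. KO libraries gave 5.96, 5.87, 5.92, 5.06 and 6.15 FPKQ, and R47H libraries 9.79, 7.78, 9.03, 8.27 and 8.21. The groups were separate, and spread within KO was narrow apart from the lower value of Rep4. The log2 difference was -1.23 in KO (SE 0.072, adjusted p = 5.94e-12) and -0.73 in R47H (SE 0.072, adjusted p = 2.56e-07), the smallest in R47H on this scale.

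Kif20a, encoded on chromosome 18, ranged from 6.69 to 9.60 FPKQ in WT with a median of 7.91. KO libraries gave 2.02, 1.69, 1.5, 1.48 and 1.75 FPKQ, and R47H libraries 5.41, 2.86, 4.31, 4.00 and 4.26. No group overlapped another, and R47H Rep2 stood well below the other R47H libraries. The log2 difference was -1.74 in KO (SE 0.0918, adjusted p = 1.23e-12) and -0.81 in R47H (SE 0.0918, adjusted p = 1.41e-06). Kif20b on chromosome 19 (34922361 to 34975745, plus strand), a member of the same kinesin family as Kif20a, ranged from 4.75 to 6.92 FPKQ in WT with a median of 5.70. KO libraries gave 1.44, 1.49, 1.25, 1.86 and 1.87 FPKQ and R47H libraries 3.59, 2.05, 2.44, 3.36 and 2.76. The lowest R47H library lay just above the highest KO library. The log2 difference of Kif20b was -1.38 in KO (SE 0.0944, adjusted p = 6.92e-11) and -0.81 in R47H (SE 0.0944, adjusted p = 1.94e-06).

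The direct comparison of the mutants asked whether the 2 alleles left the kinesins at different levels. All 10 had a higher mean in R47H than in KO, and 9 of them were called higher, where 22.8% of all tested genes were called higher and 18% lower. The median log2 difference over the 10 was 0.75, beside 0.027 over all genes. Kif11 differed by 1.28 (SE 0.111, adjusted p = 2.42e-08), Kif2c by 1.09 (SE 0.117, adjusted p = 4.09e-07) and Kif20a by 0.93, the 3 largest on this scale. With 0.1 added in place of 1, Kif2c (1.85) and Kif4 (1.79) lay above Kif11 (1.72). Among those that passed, Kif23 differed least, by 0.50 (SE 0.0832, adjusted p = 8.63e-05). For Kif18a the difference was 0.29 (95% interval 0.04 to 0.54, adjusted p = 0.0604), which missed the threshold. Without R47H Rep2 it was 0.38 and passed (adjusted p = 0.0162), and it also passed without KO Rep1 or without R47H Rep3. For Kif20b the call was lost when each mutant had its own control set, KO with WT Rep1 to Rep5 and R47H with the remaining wild types, and the 2 differences were compared, which gave 0.39 (adjusted p = 0.0836).

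The wild-type libraries were also compared among themselves, WT Rep6 to Rep10 against WT Rep1 to Rep5, to show how far control libraries differ. None of the 10 kinesins was called by limma, where 2.88% of all genes were called lower and 3.63% higher, and 0 of the 10 had an unadjusted p under 0.05. The log2 differences ran from -0.08 for Kif18a to 0.18 for Kif20b (95% interval -0.04 to 0.39, adjusted p = 0.327). Each of the 10 differences between a mutant and WT was thus several times the largest of these.

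**Figure D2:**
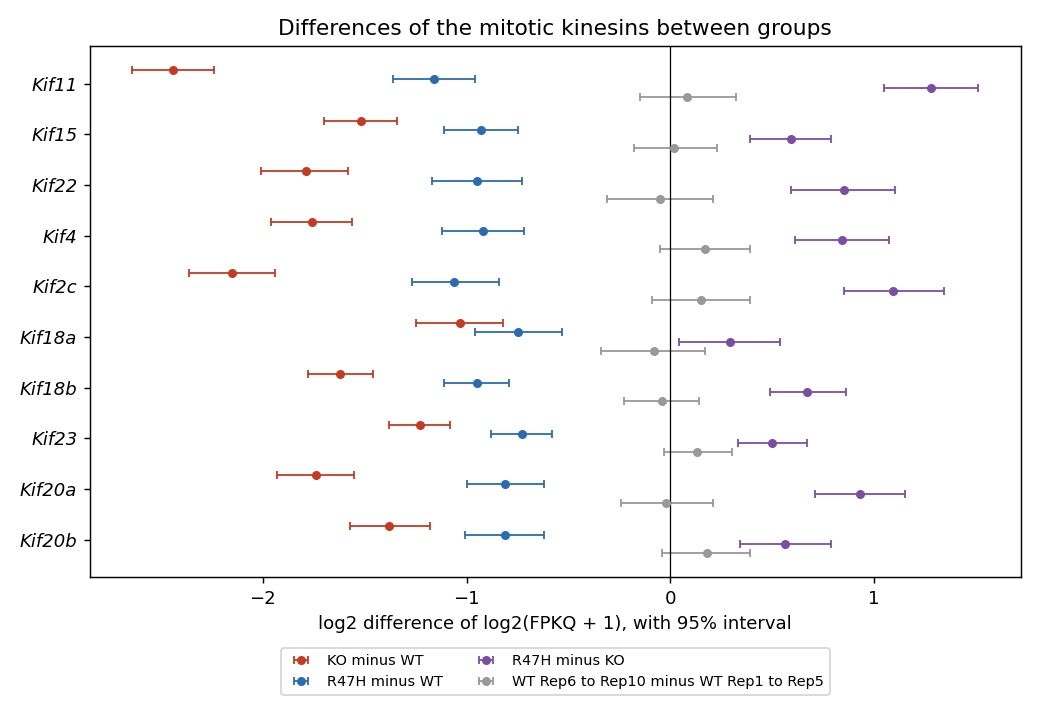
Difference between group means of log2(FPKQ + 1) for each mitotic kinesin, with 95% intervals, in the 4 comparisons. The KO and R47H differences from WT lie to the left of 0 for all 10 genes, the R47H minus KO differences lie to the right, and the intervals of the comparison between wild-type sets all include 0.

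The plot of differences with 95% intervals sets the sizes of the changes side by side. In KO the interval of Kif11, -2.64 to -2.24, did not meet that of Kif23, -1.38 to -1.08, nor that of Kif18a, -1.25 to -0.82. In R47H the interval of Kif11, -1.36 to -0.96, and that of Kif23, -0.88 to -0.58, were also apart. The added 1 compresses the differences of low genes, which percent of the wild-type mean does not. On that scale KO held Kif4, Kif18b, Kif2c and Kif11 at 9.24% to 11.7%, Kif18a, Kif15, Kif20a, Kif22 and Kif20b at 18.2% to 27.7%, and Kif23 at 38.7% ± 2.83 (SD, n = 5). Mki67, a general marker of cycling cells, stood at 20.7% ± 0.740 in KO, within the range of the middle 5. In R47H the 10 genes ranged from 35.2% to 57.6%, and Mki67 stood at 42.7% ± 8.62.

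The order of the levels in WT was Kif23, Kif22, Kif11, Kif20a, Kif2c, Kif20b, Kif15, Kif4, Kif18b and Kif18a. Between neighbours in that order only Kif11 and Kif20a, and Kif18b and Kif18a, had ranges that did not overlap, although within single libraries Kif20a exceeded Kif2c, and Kif20b exceeded Kif15, in 10 of 10. R47H kept this order except that Kif20b stood above Kif2c, in 5 of 5 libraries. In KO the order was Kif23, Kif22, Kif20a, Kif20b, Kif11, Kif15, Kif2c, Kif4, Kif18a and Kif18b. Kif11 thus went from the third place to the fifth, below Kif20b in 5 of 5 KO libraries, while the last 3 places in KO could not be told apart by their ranges.

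Kif23 accounted for 20.9% ± 1.33 of the summed level of the 10 genes in WT (SD, n = 10), for 25.7% ± 2.61 in R47H (n = 5) and for 37.0% ± 3.55 in KO (n = 5). The ranges were 19.0% to 22.7%, 23.3% to 30.1% and 31.9% to 41.0%, and did not overlap. The share of Kif11 went the other way, 16.6% ± 0.708 in WT, 14.2% ± 1.24 in R47H and 8.82% ± 1.13 in KO. The ratio of Kif23 to Kif11 was therefore 1.26 ± 0.0967 in WT, 1.83 ± 0.320 in R47H and 4.27 ± 0.835 in KO, with the lowest KO library at 3.32 and the highest WT library at 1.39. Against Racgap1, its partner in centralspindlin, Kif23 stood at 0.765 ± 0.0620 in WT, 0.891 ± 0.161 in R47H and 1.26 ± 0.153 in KO.

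Libraries of R47H and, less uniformly, of WT and KO differed across many of the 10 genes at once. The summed level of the 10 genes was 61.8 to 81.0 FPKQ in WT, 14.4 to 17.1 in KO and 25.9 to 42.0 in R47H. R47H Rep2 had the lowest sum of its group and was lowest for 9 of the 10 genes, Kif22 being lowest in Rep4. R47H Rep1 had the highest sum and was highest for 7. The same libraries were the extremes for Mki67, at 5.69 FPKQ in Rep2 and 10.3 in Rep1, while Trem2 stood at 772 FPKQ in Rep2 and 673 in Rep1. In WT, Rep3 was lowest for 5 genes and Rep10 for 4, with sums of 61.8 and 63.2 FPKQ, and Rep7 was highest for 4 with a sum of 81.0. In KO, Rep1 was highest for 4 genes and Rep5 for 3, and each was lowest for 0. KO Rep3 was lowest for 4 and highest for 0, while KO Rep4 was mixed, highest for 2 and lowest for 3. Without R47H Rep2 the R47H differences were smaller in size for all 10 genes and all 10 were called, for example -1.06 for Kif11 and -0.71 for Kif20a.

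**Figure D3:**
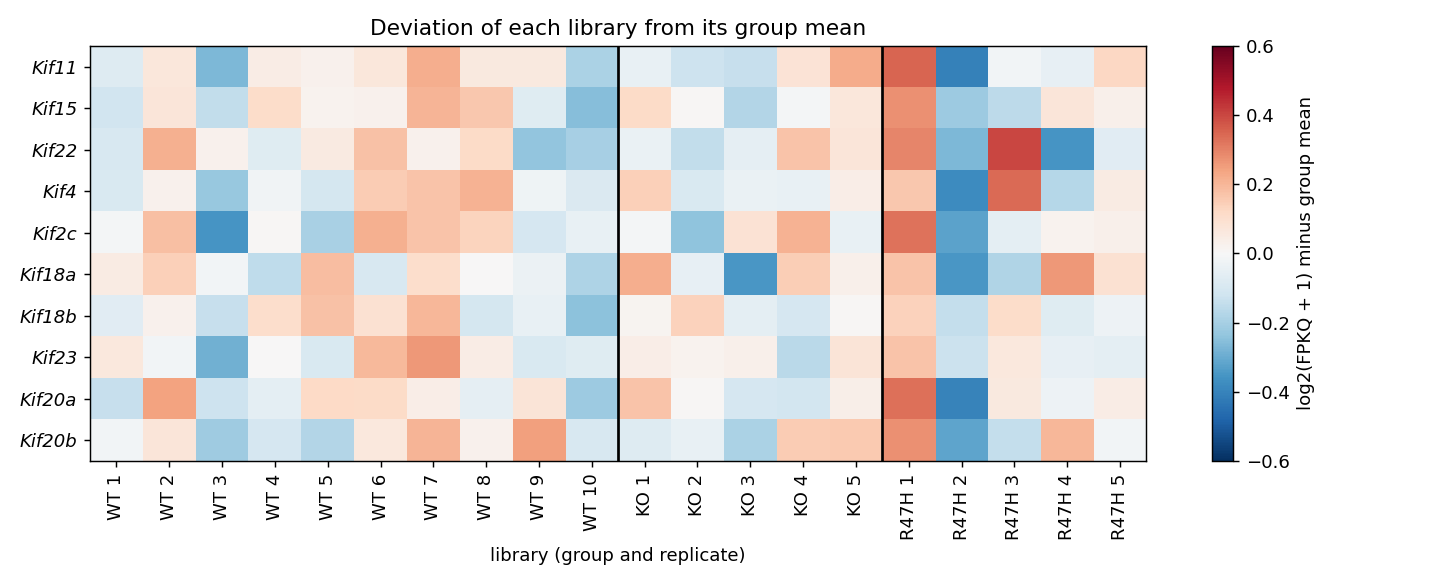
Deviation of each library from its group mean, in log2(FPKQ + 1), for the 10 mitotic kinesins in rows and the 20 libraries in columns, blue for lower and red for higher. The column of R47H Rep2 is blue for all 10 genes and that of R47H Rep1 red for all 10, while the KO columns are mixed.

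The map of deviations within groups gives the basis for asking which genes varied with the kinesins from library to library. With each group's mean taken off, the Pearson correlation between pairs of the 10 genes had a median of 0.554 over the 20 libraries and ran from 0.079 to 0.792. Kif11 followed the mean of the other 9 most closely (r = 0.909) and Kif18a least (r = 0.498). Unnamed gene models were left out of the search for similar genes. Among the remaining tested genes, those most like the mean of the 10 were Ect2 (r = 0.923), Mki67 (0.921), Cenpe (0.921), Top2a (0.896), Pclaf (0.895), Ccna2 (0.895), Rrm1 (0.887) and Cenpf (0.879). Ect2 is the exchange factor that centralspindlin recruits to the furrow, Cenpe is a kinetochore kinesin, and Top2a untangles sister chromosomes. The points share their libraries and depth, so these correlations are descriptions. Ect2 itself went from 5.99 FPKQ in WT to 1.12 in KO and 2.35 in R47H. Cenpf, at 2.6 FPKQ in WT, 0.262 in KO and 0.919 in R47H, passed the minimum level only through its wild-type libraries.

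Other kinesins with a role in mitosis or at centrioles were looked up as a list of 6, of which 3 had the level needed for a test. Kifc1, a minus-end motor that gathers spindle poles, went from 9.58 to 13.3 FPKQ in WT to 1.26 to 1.89 in KO and 4.9 to 7.18 in R47H, and its groups did not overlap. Its log2 difference was -2.30 in KO (SE 0.0839, adjusted p = 6.2e-15) and -0.93 in R47H (SE 0.0839, adjusted p = 9.45e-08). The near-identical copy Kifc5b, at 2.21 FPKQ in WT, 0.682 in KO and 1.15 in R47H, may share reads with Kifc1, so that the level of each is less certain. Cenpe differed by -1.60 in KO and by -1.02 in R47H (limma adjusted p = 1.13e-06). Kif2a, the relative of Kif2c that acts at spindle poles and in resting cells, was called higher in KO by 0.16 (adjusted p = 0.0484), from 14.1 to 15.9 FPKQ, but this call was lost under 17 alternatives, and in R47H it differed by -0.06 (adjusted p = 0.559).

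Of 27 kinesins known mainly for cargo transport, cilia or signalling, 16 were tested. In KO 9 of them rose, 2 fell and the other 5 missed the threshold, and their median log2 difference was 0.24. Of all tested genes, 28.2% were called higher and 23.7% lower in KO, and 13.4% and 7.83% in R47H. Kif3a, a motor of cilia and vesicles, rose most, from 18.6 to 30.7 FPKQ in WT to 53.2 to 66.8 in KO, with R47H between at 33.7 to 37.7, and the 3 groups did not overlap. Its log2 difference was 1.23 in KO (SE 0.0832, adjusted p = 5.93e-11) and 0.55 in R47H (SE 0.0832, adjusted p = 4.97e-05). Kif13b, which carries membrane proteins along microtubules, rose from a mean of 13.2 ± 2.03 FPKQ in WT (SD, n = 10) to 27.2 ± 1.76 in KO (n = 5), by 1.01 on the log2 scale (SE 0.0838, adjusted p = 1.63e-09).

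Further rises in KO were 0.62 for Kif9, 0.54 for Kif5c, 0.33 for Kif19a, 0.30 each for Kif13a and Kif16b, 0.24 for Kif1b and 0.23 for Kif3b. Kif3c, which can replace Kif3b as the partner of Kif3a, fell by 0.54, from 9.01 to 5.87 FPKQ, and Kifc3 fell by 0.43. In R47H 4 of the 16 rose, namely Kif3a, Kif13b by 0.30 (adjusted p = 0.0132), Kif5c by 0.34 and Kifc2 by 0.33, 1 fell, Kifc3 by 0.32, and 11 did not pass. The rise of Kif13b in R47H was lost with libraries rescaled to equal sums, at 0.19, and with WT Rep1 to Rep5 as the control, at 0.13. Between the wild-type sets Kif13b was itself called, lower in WT Rep6 to Rep10 by -0.33 (limma adjusted p = 0.0043). With equal sums 2 of the 16 rose and 2 fell. The abundant cargo motors Kif1c, at 62.5 FPKQ in WT, and Kif5b, at 38.5, did not pass in either mutant, and they and Kifc3 were named after their values were seen. Among 5 tested light chains and adaptors, Klc1 fell in KO by 0.36 (adjusted p = 6.45e-05). Klc1 was also called between the wild-type sets, higher in WT Rep6 to Rep10 by 0.21 (limma adjusted p = 0.0333). Kifap3, the adaptor of the Kif3 motors, was higher in KO by 0.21 (adjusted p = 0.00339), and Klc2, Klc4 and Kif1bp did not pass in KO. In R47H Klc2 was called higher, by 0.16 (limma adjusted p = 0.0338), and the other 4 did not pass.

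**Figure D4:**
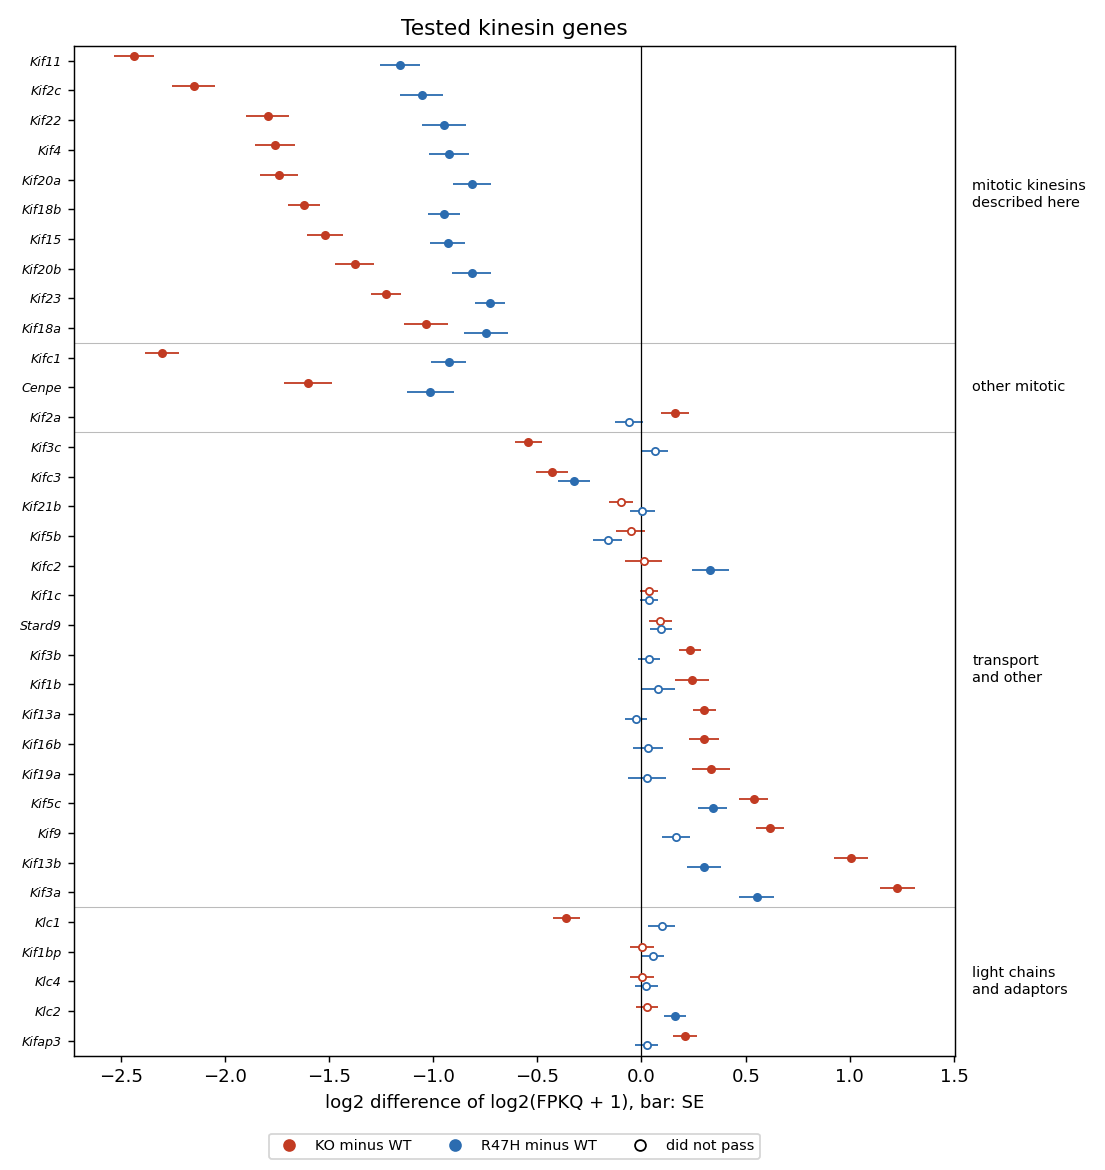
Log2 difference of log2(FPKQ + 1) from WT, with its SE, for all tested kinesin heavy chains, light chains and adaptors, grouped by list, filled where limma called the change and open where it did not. The 10 mitotic kinesins with Kifc1 and Cenpe lie to the left, and the transport kinesins lie around 0 with Kif3a and Kif13b farthest to the right.

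The plot of the kinesin superfamily sets these lists side by side. The proteins with which the mitotic kinesins work were then looked up by role. Beside the counts of these lists stand the shares of all tested genes, 23.7% lower and 28.2% higher in KO, and 7.83% and 13.4% in R47H. Of 12 tested partners in the central spindle and cytokinesis, 11 fell and 1 rose in KO (median -1.69), and in R47H 10 fell and the other 2 missed the threshold (median -0.89). Racgap1 went from 17.4 to 21.3 FPKQ in WT to 4.21 to 5.13 in KO and 7.10 to 12.6 in R47H, which left the groups apart, and its log2 difference was -1.87 in KO and -0.93 in R47H (adjusted p = 3.34e-07). Prc1, the bundler of antiparallel microtubules that Kif4 binds, differed by -2.30 in KO and -1.10 in R47H. The kinase Plk1, which docks on Kif20a, differed by -2.22 and -1.12, and Cdca8, of the Aurkb complex, by -1.65 and -0.74. The gene that rose in KO was Cenpa, the histone variant of centromeres, from 24.3 ± 3.80 FPKQ in WT (SD, n = 10) to 37.2 ± 2.43 in KO (n = 5), by 0.60 (SE 0.111, adjusted p = 0.000106). It was singled out after its values were seen, and in R47H it differed by -0.25 (adjusted p = 0.12). Cenpa was also called between the wild-type sets, lower in WT Rep6 to Rep10 by -0.38 (adjusted p = 0.0242), so its difference from WT depends on the control set.

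Of 23 tested spindle assembly partners, 16 fell, 1 rose and 6 did not pass in KO (median -0.64), and 14 fell, 2 rose and 7 did not pass in R47H (median -0.32). Tpx2, which recruits Kif15 and Aurka to spindle microtubules, went from 13.4 ± 1.3 FPKQ in WT to 2.90 ± 0.448 in KO and 7.47 ± 1.3 in R47H, with log2 differences of -1.88 and -0.77. Tacc3, Spag5 and Ckap2l, all spindle microtubule proteins, differed in KO by -1.61, -1.93 and -2.04. Mapre1, the end-binding protein that carries Kif18b, stood at 28.6 FPKQ in WT, 27.5 in KO and 29.6 in R47H and did not pass in either (adjusted p = 0.326 and 0.507). Mapre3 rose in KO by 0.38, and in R47H Mapre3 and Haus8 rose by 0.25 and 0.20, and these genes, like Mapre1, Mapre2 and Numa1, were named after their values were seen. The end-binding protein Mapre2 and the pole protein Numa1 also did not pass in either mutant.

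**Figure D5:**
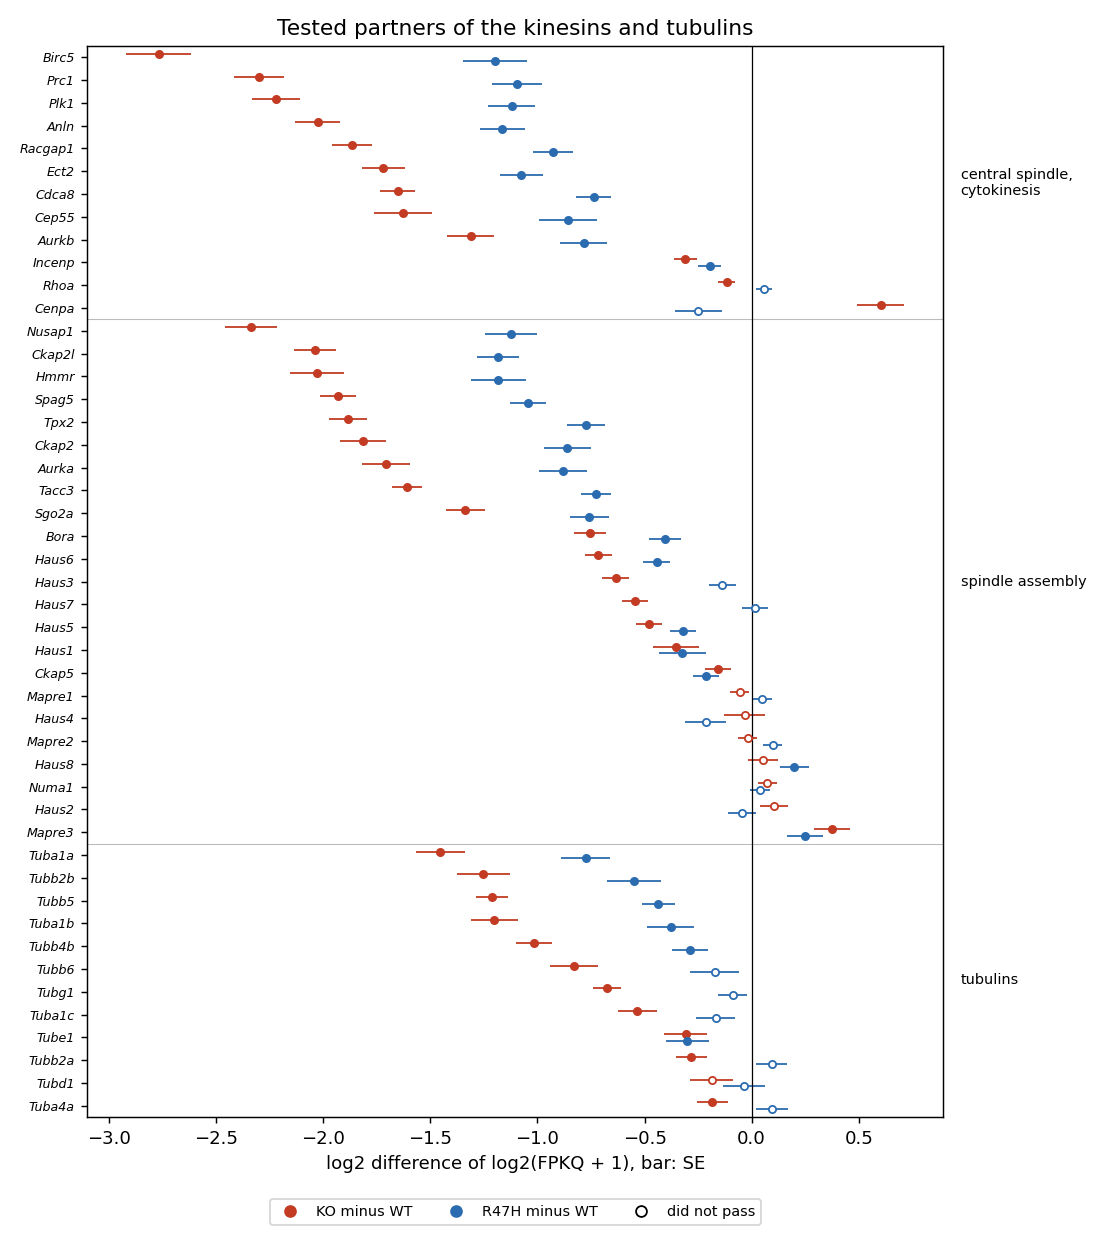
Log2 difference of log2(FPKQ + 1) from WT, with its SE, for tested partners in the central spindle and cytokinesis, tested spindle assembly partners and tested tubulins, filled where limma called the change and open where it did not. Cenpa and Mapre3 are the genes called higher in KO, and none of the tubulins is called higher in either mutant.

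The plot of partners and tubulins also shows the track itself. Of 12 tested tubulins 11 fell and 1 did not pass in KO (median -0.75), and 6 fell and 6 did not pass in R47H (median -0.23). Both counts of falls include Tube1, at 1.36 FPKQ in WT, 0.921 in KO and 0.937 in R47H, which passed the minimum level only through its wild-type libraries. Tubb5 went from 208 to 268 FPKQ in WT to 91.8 to 113 in KO and 154 to 206 in R47H, with a log2 difference of -1.21 in KO (SE 0.0752, adjusted p = 1.46e-11) and -0.44 in R47H. Tuba1a differed by -1.45 in KO and -0.77 in R47H, Tuba1b by -1.20 and -0.38, and Tubb4b by -1.02 and -0.29. Tubb4b was also called between the wild-type sets, higher in WT Rep6 to Rep10 by 0.27 (limma adjusted p = 0.0447), so its R47H difference depends on the control set. Tubulin genes are near copies of each other, so the division of reads among them is uncertain. With WT Rep1 to Rep5 as the control, or with replicate number as a block, 2 tubulins were called lower in R47H. For dynein, the motor that walks the other way on the same microtubules, 7 of 18 tested subunits and regulators fell, 1 rose and 10 did not pass in KO (median -0.03). In R47H 3 rose and 15 did not pass. Of all tested genes, 23.7% were called lower and 28.2% higher in KO, and 7.83% and 13.4% in R47H. With equal sums 3 of the 18 were called lower in R47H, and with WT Rep1 to Rep5 as the control 4 were called lower in KO. Nde1, a dynein regulator used in mitosis, had the largest difference in KO, -0.67 (adjusted p = 2.04e-08). It was also called between the wild-type sets, higher in WT Rep6 to Rep10 by 0.22 (limma adjusted p = 0.0303). In KO the subunits Dynll1, Dctn3 and Dync1li2 differed by -0.56, -0.28 and -0.16.

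Factors known to act on promoters of mitotic genes formed a list of 14, all tested. In KO 10 fell and 4 did not pass (median -0.28), and in R47H 6 fell and 8 did not pass (median -0.14). Of all tested genes, 23.7% were called lower in KO and 7.83% in R47H. Foxm1, an activator of genes used in mitosis, went from 6.44 to 9.32 FPKQ in WT to 0.987 to 1.5 in KO and 1.90 to 3.94 in R47H, without overlap, and differed by -1.87 in KO (SE 0.0972, adjusted p = 9.92e-13) and -1.16 in R47H. Mybl2, the activating partner in the complex that binds the cell cycle genes homology region, differed by -1.46 and -0.86, and the repressors E2f8 and E2f7 by -1.45 and -1.25 in KO. E2f7, at 1.72 FPKQ in WT, 0.139 in KO and 0.615 in R47H, passed the minimum level only through its wild-type libraries. So did Mybl2, at 3.06 FPKQ in WT, 0.48 in KO and 1.26 in R47H. Of the 3 NF-Y subunits, which bind CCAAT, Nfyb fell in KO by 0.25 (adjusted p = 0.000709), and Nfya and Nfyc did not pass (adjusted p = 0.169 and 0.632), and these subunits were named after their values were seen. All 10 proliferation markers looked up fell in both mutants, with medians of -1.79 in KO and -1.13 in R47H. They include Ccna2, at -2.76 in KO, Rrm2 at -2.73, Top2a at -2.60 and Mcm6 at -1.38, and the medians of the 10 kinesins, given above, were -1.68 and -0.93.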

How the data were processed

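Expression was measured by RNA-seq in 20 libraries, and the authors deposited 1 table per library with a level in FPKQ for 51456 symbols, handled here as FPKM on a quantile scale. The submitters' processing notes name RSEM and GRCm38, and settings, versions and a definition of FPKQ were not given in the sources used here. Levels entered the analysis as log2(FPKQ + 1) for the 10843 genes whose mean over all libraries reached 1 FPKQ. The test was limma 3.58.1 under R 4.3.3 (trended eBayes), 3 groups in a single model without covariates, with Benjamini-Hochberg adjustment over all genes. A model with 4 groups compared the wild-type sets. Depth was estimated from low values, of which 86.6% to 91.5% per library were whole fragments within 0.1 fragment, and no count test was run because RSEM divides fragments. The promoter motifs were searched on both strands. The members and lists were chosen with earlier results of these data known. Named were all 10 kinesins, up to 4 genes per list with the lowest adjusted p in KO, and other kinesins that rose. Also named were the 8 genes most alike, with unnamed gene models left out, and genes said to be named after their values were seen. Replicates were separate animals per the design text, and p-values measure the spread between these libraries. Gene coordinates are from GENCODE M21 on GRCm38. Alternatives covered the pseudocount, filter, scaling, control set, groups in the fit, moderation, weights, a block for the replicate number, and omission of single libraries. Python 3.11.15, numpy 2.4.6, pandas 2.3.3 and matplotlib 3.10.9 were used.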

Additional observations from a re-analysis of the deposited data

Results flagged for a closer look

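For each of the 10 kinesins the highest and lowest library of each group was checked for a gap to the rest of its group, over 30 combinations of gene and group. A single value stood apart, Kif23 in KO Rep4 at 5.06 FPKQ, where the other 4 KO libraries lay between 5.87 and 6.15. Chance alone sets about 1 in 20 such groups apart. Without KO Rep4 the call of Kif23 in KO held, and with it included every KO library still lay under every R47H library.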

How the results depend on the processing

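Every one of the 333 recomputed differences of the 10 kinesins in KO, and every one of the 333 in R47H, kept its direction and its call. They ran from -3.15 to -0.79 in KO and from -1.43 to -0.66 in R47H. With a minimum mean of 5 FPKQ only 4 kinesins were tested and 4 were called in each comparison of KO, R47H and R47H against KO. Leaving out single libraries gave 9 to 10 calls in KO, 9 to 10 in R47H, 9 to 10 for R47H against KO and 0 to 0 between wild-type sets. The 9 in both mutants arose without WT Rep5, where Kif18a fell below the minimum and was not tested. For R47H against KO, Kif20b was lost with separate wild-type sets (0.39), and Kif18a passed with a pseudocount of 0.1 (0.88), library weights (0.34), without KO Rep1 (0.34), without R47H Rep2 (0.38) and without R47H Rep3 (0.33), while quantile normalization gave 0.02. Among all genes, R47H against KO had 4417 calls and 1559 with separate wild-type sets, and the wild-type sets had 706, with 2221 under library weights and 417 to 455 without WT Rep3, Rep4, Rep6 or Rep10, and likewise fewer by over 1.5 times without Rep5. Among Rep1 to Rep5, same-numbered libraries of different groups showed little common deviation (r from -0.25 to 0.34). WT Rep6 to Rep10 were not set against the mutants in this way, so a pairing with them was not tested. With a replicate block 10, 10 and 9 kinesins were called in KO, R47H and R47H against KO. Depth limits Kif18a, Kif18b and Kif4 in KO.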
